A study of Mus musculus with 12 samples.

Results

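The genes described here are 10 inflammatory CC chemokines, Ccl2, Ccl3, Ccl4, Ccl5, Ccl6, Ccl7, Ccl8, Ccl9, Ccl12 and Ccl24, taken by their gene symbols from a count table of 24391 genes. All 10 were found in the table, and all 10 passed the filter on low counts that left 13221 genes for testing. The table held 12 RNA-seq libraries of CD11b dendritic cells (DCs) from mice with established pulmonary fibrosis and their controls, made from poly(A)-selected RNA with a strand-keeping kit. The libraries came from wild-type C57BL/6J mice used at 8 to 12 weeks of age. Under xylazine and ketamine anaesthesia each mouse had received, through the trachea, a replication-deficient adenovirus: either AdCL, which carries no inserted gene, or AdTGFb1, which carries the porcine TGF-β1 gene in its biologically active form. The control mice were thus also exposed to adenovirus, and no group went without vector. The titles name 2 experiments, 1 and 3, and give 3 libraries per vector in each, numbered DC 7, 8 and 9 (AdCL) and DC 14, 52 and 54 (AdTGFb1) in experiment 1, and DC 943, 944 and 949 (AdCL) and DC 954, 955 and 956 (AdTGFb1) in experiment 3. The days between vector and harvest, the sorting gate and the number of animals behind a library are not stated in the labels, so p-values measure the spread between these libraries.

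CC chemokines are small secreted proteins that guide leukocytes through receptors with their own division of labour. Ccl2, Ccl7 and Ccl12 attract monocytes through Ccr2. Ccl3, Ccl4 and Ccl5 attract T cells, monocytes and other leukocytes, Ccl3 and Ccl5 in part through Ccr1. Ccl6 and Ccl9 are rodent chemokines that act on Ccr1, Ccl8 of the mouse acts on Ccr8, and Ccl24 (eotaxin-2) attracts eosinophils through Ccr3. In the lung, macrophages and dendritic cells make many of them during infection, allergy and fibrosis.

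The members sit in clusters on the genome. In the order of protein-coding genes in the mouse RefSeq annotation, Ccl2 and Ccl7 were followed by Ccl11, Ccl12, Ccl8 and Ccl1 on chromosome 11. Ccl5, Ccl9, Ccl6, Ccl3 and Ccl4 were neighbours in that order on the same chromosome, and Ccl24 lay on chromosome 5 next to Ccl26. RefSeq's promoter table for build GRCm38.p6 held 5 of the 10 members, each with 250 bases before and 50 bases after the start of the gene. The promoters of the adjacent genes Ccl6 and Ccl9 are printed because the vector effect on both transcripts differed between the 2 experiments. They are read 5′ to 3′ on the gene's own strand, which is the minus strand for both, and capitals mark every run of at least 10 bases found in both windows. The windows are chr11:83593038-83593337 for Ccl6 and chr11:83578587-83578886 for Ccl9.
Ccl6: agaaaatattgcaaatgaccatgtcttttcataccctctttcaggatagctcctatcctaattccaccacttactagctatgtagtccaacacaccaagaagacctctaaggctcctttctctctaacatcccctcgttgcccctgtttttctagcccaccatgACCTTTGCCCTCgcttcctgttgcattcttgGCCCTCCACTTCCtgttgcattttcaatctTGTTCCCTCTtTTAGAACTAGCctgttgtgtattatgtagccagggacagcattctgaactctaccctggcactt
Ccl9: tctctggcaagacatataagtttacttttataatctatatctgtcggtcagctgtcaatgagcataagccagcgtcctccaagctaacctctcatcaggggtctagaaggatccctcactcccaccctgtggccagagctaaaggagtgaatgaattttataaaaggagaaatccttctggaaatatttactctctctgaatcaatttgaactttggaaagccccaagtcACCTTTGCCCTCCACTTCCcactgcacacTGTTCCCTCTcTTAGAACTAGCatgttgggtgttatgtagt

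These runs covered 46 bases of the Ccl6 window in 4 runs and 40 bases of the Ccl9 window in 3 runs. The longest run was 19 bases in the Ccl9 window, close to the start of the gene, and its parts lay in 2 places in the Ccl6 window. Among the 5 member promoters, only Ccl8 and Ccl12 shared another such run, 1 of 11 bases.

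The promoters of Ccl12 and Ccl8, also neighbours, are printed because these were the members whose levels followed the summed interstitial macrophage markers most closely. Both lie on the plus strand, at chr11:82101595-82101894 for Ccl12 and chr11:82114935-82115234 for Ccl8, and capitals mark the letters TATAAA.
Ccl12: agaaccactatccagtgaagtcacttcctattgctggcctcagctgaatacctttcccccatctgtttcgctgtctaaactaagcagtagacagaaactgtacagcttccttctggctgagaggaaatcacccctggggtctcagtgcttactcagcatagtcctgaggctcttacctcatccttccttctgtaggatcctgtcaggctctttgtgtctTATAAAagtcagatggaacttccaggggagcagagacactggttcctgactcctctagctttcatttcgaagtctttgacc
Ccl8: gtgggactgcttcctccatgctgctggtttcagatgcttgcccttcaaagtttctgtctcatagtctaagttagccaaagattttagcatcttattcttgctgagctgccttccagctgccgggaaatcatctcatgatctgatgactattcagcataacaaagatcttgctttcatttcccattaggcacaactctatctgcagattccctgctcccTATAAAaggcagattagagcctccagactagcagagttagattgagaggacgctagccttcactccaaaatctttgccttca

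TATAAA stood 31 bases before the start of Ccl12 and 32 bases before that of Ccl8. Searched on both strands, it was in 3 of the 5 member promoters (Ccl12, Ccl8 and Ccl9) and in 13.6% of the 32851 promoters of that length. GGAAGT, the letters of an ETS-type site, was in 4 of the 5, all but Ccl8, and in 23.8% of all promoters. The NF-kappaB consensus was in 1 of the 5, Ccl9, and in 8.46% of all promoters. Ccl9 held 3 matches of TATAAA, of which 2 on opposite strands overlapped, and no match overlapped a different motif. A match in these windows is a description of the letters only.

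Total counts ran from 10099912 to 15594546 per library, at which 3 counts, the limit that a count of 0 allows, are worth 0.181 to 0.310 CPM, the usual unit of counts scaled to library size, here with TMM factors. Itgam, which encodes CD11b, ran from 276 to 561 CPM per library, and Itgax, which encodes CD11c, from 788 to 1241 CPM. The MHC class II gene H2-Ab1 ran from 4785 to 9743 CPM. Of the 10 CD11b dendritic cell markers listed, 6 were lower and 1 higher with AdTGFb1 over both experiments. As group means, their summed level was 30359 CPM in AdCL and 20442 CPM in AdTGFb1 of experiment 1. In experiment 3 it was 31108 and 26586 CPM. Most of this sum was Cd74 and H2-Ab1. In experiment 1 Cd74 was at means of 19658 CPM in AdCL and 12109 CPM in AdTGFb1, and H2-Ab1 at 7521 and 5216 CPM. In experiment 3 Cd74 was at 18995 and 16936 CPM and H2-Ab1 at 8353 and 6718 CPM. Within experiment 1, 6 of the 10 markers were lower and 2 higher. Xist and Ddx3y put the 3 AdCL libraries of experiment 1 and AdTGFb1 DC 14 as male and the other 8 libraries as female, so sex differed between the vectors within experiment 1 and not within experiment 3. Markers of endothelial cells moved the same way: their summed level was 144 to 549 CPM in AdCL and 23.5 to 42.5 CPM in AdTGFb1 of experiment 1, against 35.3 to 73.4 CPM and 72.0 to 136 CPM in experiment 3. All 8 of 8 endothelial markers were lower with AdTGFb1 in experiment 1 and 0 of 8 passed the test in experiment 3.

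The 10 chemokines together made up 0.0815% to 0.248% of a library's counts. Their summed level was 971 ± 72.2 CPM (SD, n = 3) in AdCL and 1989 ± 395 CPM in AdTGFb1 of experiment 1. In experiment 3 the order was the other way round, with 1458 ± 59.9 CPM in AdCL and 1094 ± 234 CPM in AdTGFb1. Groups in the text are means ± SD of 3 libraries unless another number is given. In both experiments the 2 groups did not overlap, but the sum moved mainly with 2 genes. Ccl6 and Ccl9 together were 42.5 ± 5.37% of the sum in AdCL and 76.0 ± 5.67% in AdTGFb1 of experiment 1, then 56.6 ± 17.0% and 42.1 ± 3.73% in experiment 3.

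**Figure D1:**
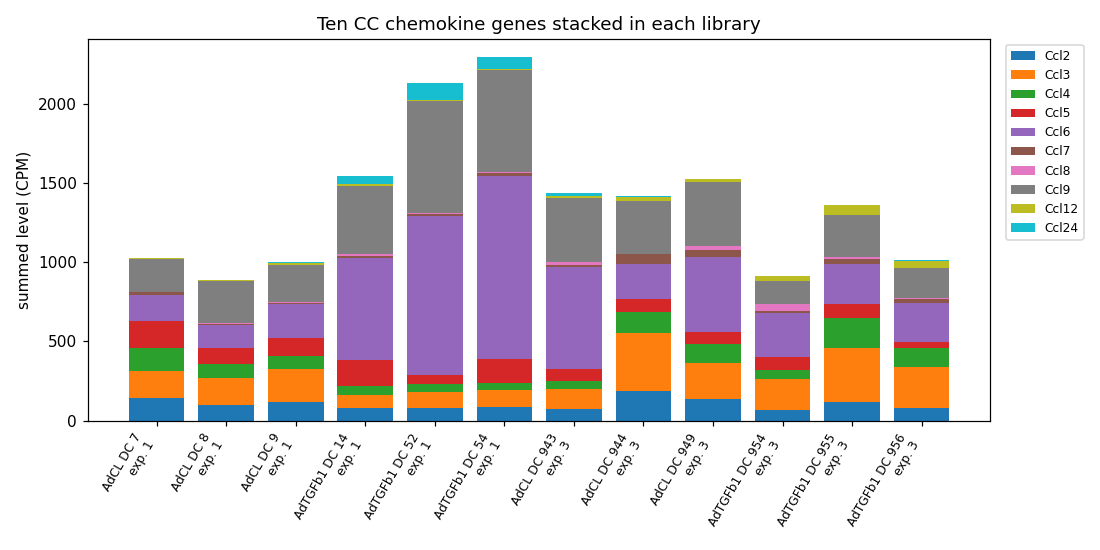
Level of each of the 10 chemokine genes stacked for each of the 12 libraries (y axis, CPM, starting at 0), with libraries on the x axis by vector and experiment. The 3 AdTGFb1 libraries of experiment 1 hold the tallest columns, from 1543 to 2293 CPM, made mostly of Ccl6 and Ccl9.

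The effect of the TGF-β1 vector was estimated over both experiments together and within each one, with edgeR's quasi-likelihood test fitted on all 13221 genes and an adjusted p under 0.05 as the call. Over both experiments 0 of 10 chemokines were higher and 1 of 10, Ccl2, was lower, where 6.78% and 10.4% of all tested genes were called in those directions and 17.2% in either. The median log2 fold change of the 10 was 0.03, beside a median of -0.00196 for all genes. Within experiment 1, 3 of 10 were higher (Ccl6, Ccl9 and Ccl24) and 2 of 10 lower (Ccl3 and Ccl4), against 24.7% of all genes in either direction, 10.6% higher and 14.1% lower. Within experiment 3, 1 of 10 was higher (Ccl12) and 2 of 10 lower (Ccl9 and Ccl24), against 6.43% of all genes in either direction, 1.97% higher and 4.46% lower. The difference between the experiments' vector effects was itself tested: 3 of 10 members, Ccl6, Ccl9 and Ccl24, passed, all with a lower effect in experiment 3, where 6.02% of all genes passed in either direction, 2.59% in that one and 3.43% in the other. Both experiments hold separate AdCL and AdTGFb1 libraries and share none.

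**Figure D2:**
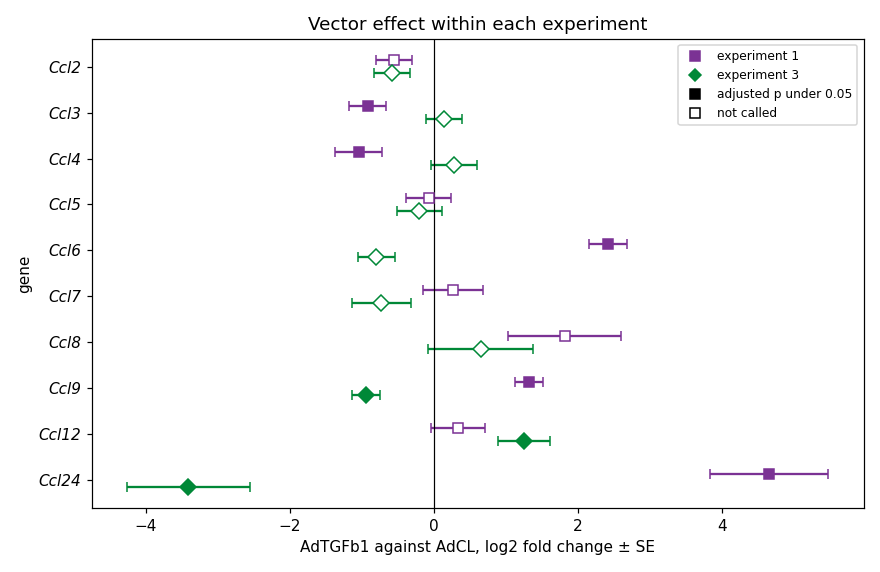
Log2 fold change of AdTGFb1 against AdCL with its standard error (x axis) for the 10 chemokine genes (y axis), squares for experiment 1 and diamonds for experiment 3, filled where the adjusted p was under 0.05. Ccl6, Ccl9 and Ccl24 lie to the right of 0 in experiment 1 and to the left in experiment 3.

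Complete separation of the groups was common in all genes, with 40.5% of them not overlapping within experiment 1 and 24.4% within experiment 3. It held for 7 of 10 members in experiment 1 and 3 of 10 in experiment 3. Over both experiments it held for 0 of 10 members and 6.32% of genes, 1.86% higher and 4.46% lower.

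Ccl6, a rodent chemokine for macrophages and other leukocytes, showed the largest called rise in CPM. Its level was 166, 144 and 214 CPM in AdCL and 644, 1004 and 1159 CPM in AdTGFb1 of experiment 1. Every AdTGFb1 library lay above every AdCL library there, and the log2 fold change was 2.42 ± 0.27 (SE) with an adjusted p of 8.86e-07. In experiment 3 it was 641, 222 and 476 CPM in AdCL and 277, 254 and 242 CPM in AdTGFb1. The AdCL libraries spanned the AdTGFb1 ones, with DC 944 below all of them, and the log2 fold change of -0.80 ± 0.25 had an adjusted p of 0.0657. The effect in experiment 3 was lower than in experiment 1 by a log2 difference of -3.21 ± 0.37 (adjusted p = 3.79e-05).

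Ccl9, the genomic neighbour of Ccl6 and a ligand of the same receptor, moved in both experiments, in opposite directions. In experiment 1 it stood at 207, 267 and 234 CPM in AdCL and at 429, 702 and 641 CPM in AdTGFb1. In experiment 3 it stood at 409, 332 and 400 CPM in AdCL and at 140, 266 and 188 CPM in AdTGFb1. The groups did not overlap in either experiment. Its log2 fold change was 1.32 ± 0.20 in experiment 1 (adjusted p = 3.67e-05) and -0.94 ± 0.20 in experiment 3 (adjusted p = 0.00435), a difference of -2.27 ± 0.28 (adjusted p = 6.25e-05). These 3 calls for Ccl9 held in each of the 19 other settings tried. Of its 2996 stretches of 50 bases, 59 were also found in other annotated genes, the only member with any.

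Ccl24, the eosinophil attractant, had the widest range of the 10. In experiment 1 its counts were 6, 16 and 76 in AdCL and 694, 1574 and 1057 in AdTGFb1, or 0.620, 1.59 and 7.07 CPM against 52.6, 113 and 72.7 CPM. In experiment 3 AdCL held 152, 67 and 57 counts (14.6, 5.45 and 3.82 CPM) and AdTGFb1 0, 0 and 34 counts (2.05 CPM in DC 956). The groups did not overlap in either experiment. The log2 fold change was 4.66 ± 0.82 in experiment 1 (adjusted p = 0.000209) and -3.41 ± 0.86 in experiment 3 (adjusted p = 0.0159), and with 2 libraries at 0 the second value depends on the fit's prior count. The difference between the experiments was -8.07 ± 1.18 (adjusted p = 0.000296). The call in experiment 3 was lost without DC 943 (adjusted p = 0.0656), which had the highest AdCL count, and without DC 954 (adjusted p = 0.0513). Without DC 956, the only AdTGFb1 library of experiment 3 with counts, the fitted value was -9.62 in experiment 3 and the difference between experiments -14.28, neither of which is a bound, since that group is then at 0.

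**Figure D3:**
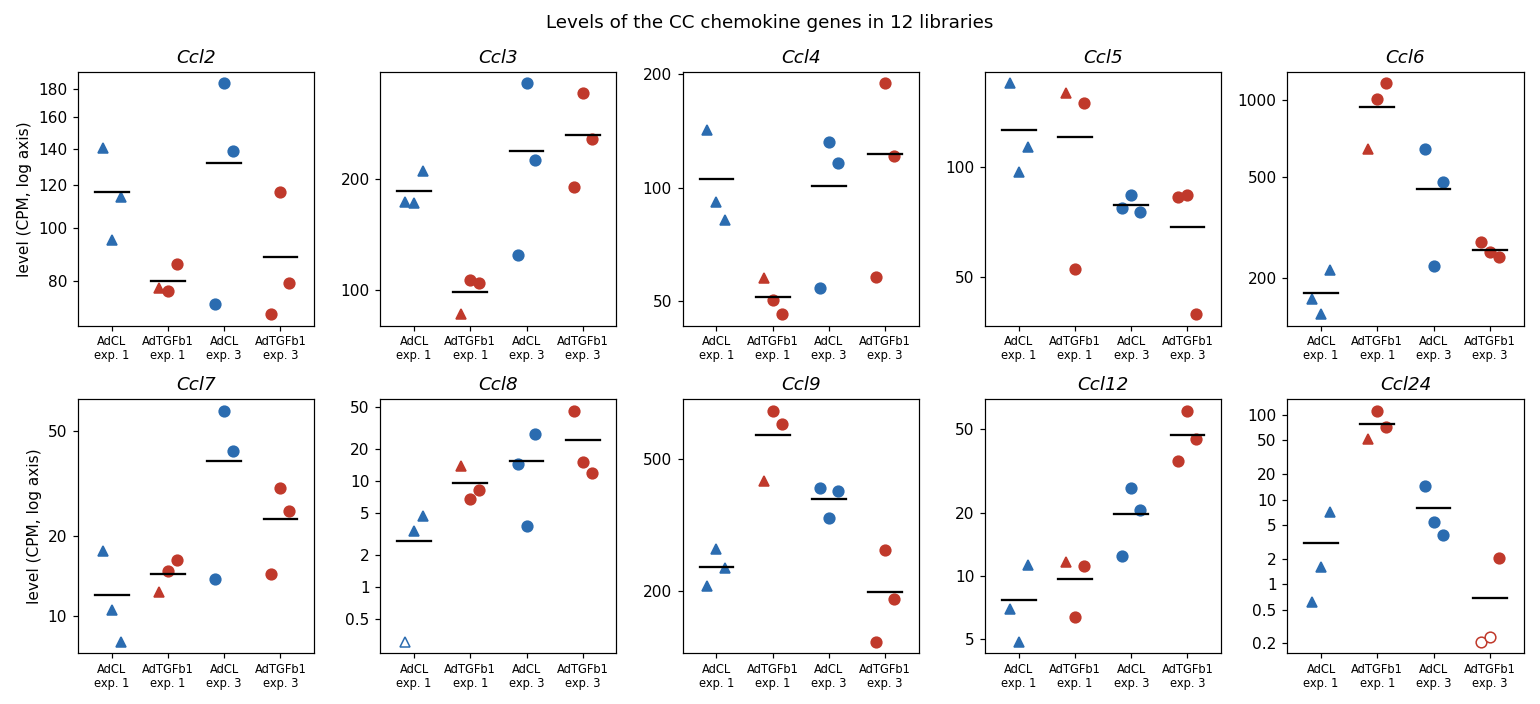
Level of each chemokine gene (y axis, CPM, log axis) in every library by vector and experiment (x axis), with triangles for male and circles for female libraries and bars for the group means. Open symbols are libraries with 0 counts, drawn at the level of 3 counts. Ccl6, Ccl9 and Ccl24 are highest in AdTGFb1 of experiment 1, and Ccl12 is highest in AdTGFb1 of experiment 3.

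Sex was not the same in the groups of experiment 1. AdTGFb1 DC 14 was male like the 3 AdCL libraries, and the other AdTGFb1 libraries were female. DC 14 lay above all 3 AdCL libraries for Ccl6 (644 against at most 214 CPM), Ccl9 (429 against at most 267 CPM) and Ccl24 (52.6 against at most 7.07 CPM). For each of these genes it was the lowest AdTGFb1 library of experiment 1. With a term for sex in the fit, these 3 genes stayed called in experiment 1. Their log2 fold changes were 1.88, 0.86 and 4.07, beside 2.42, 1.32 and 4.66 without the term. That fit tells sex from vector in experiment 1 through DC 14 alone. Ccl3 and Ccl4 did not pass in that fit, with log2 fold changes of -1.12 (adjusted p = 0.0766) and -0.876 (adjusted p = 0.28) beside -0.91 and -1.04 without the term.

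Markers of alveolar macrophages moved with Ccl6, Ccl9 and Ccl24. Alveolar macrophages are the resident phagocytes of the airspaces, and 11 of the 13 markers listed were in the table under the symbols used. Their summed level was 120 to 221 CPM in AdCL and 1230 to 2473 CPM in AdTGFb1 of experiment 1, then 283 to 724 CPM in AdCL and 129 to 168 CPM in AdTGFb1 of experiment 3. The largest single part of this was Chil3, which encodes a chitinase-like protein. Its means were 58.0, 1560, 253 and 47.0 CPM in the same order of groups, beside mean sums of 178, 1929, 464 and 142 CPM. For 4 of the 11 markers (Chil3, Atp6v0d2, Plet1 and Ear2) the vector effect was lower in experiment 3 than in experiment 1, and 0 of 11 passed in the other direction. The defining markers Siglecf and Marco were low, with group means of 7.10 to 12.7 CPM and 3.03 to 14.7 CPM, and passed in neither experiment. Monocyte markers, 8 of 9 of them in the table, moved with the 3 genes as well, with summed levels of 691 to 944 CPM in AdCL and 4484 to 11396 CPM in AdTGFb1 of experiment 1, then 905 to 2087 CPM and 608 to 996 CPM in experiment 3. Most of that sum was Fn1, which encodes fibronectin, at means of 578, 7846, 1136 and 455 CPM, while the defining monocyte marker Ly6c2 was at means of 0.601, 7.03, 4.21 and 7.76 CPM. Of these 8 markers 2 had a lower vector effect in experiment 3 than in experiment 1 and 0 a higher one, and none was at 0 in all libraries. Over the 12 libraries the log2 level of Ccl6 had a Pearson r of 0.93 with the summed alveolar macrophage markers, Ccl9 one of 0.94 and Ccl24 one of 0.90. With the summed monocyte markers r was 0.92, 0.90 and 0.85. These are descriptions over libraries that share groups. In bulk RNA, more cells of a type and more RNA per cell cannot be told apart, and the part of such cells in these differences was not tested.

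**Figure D4:**
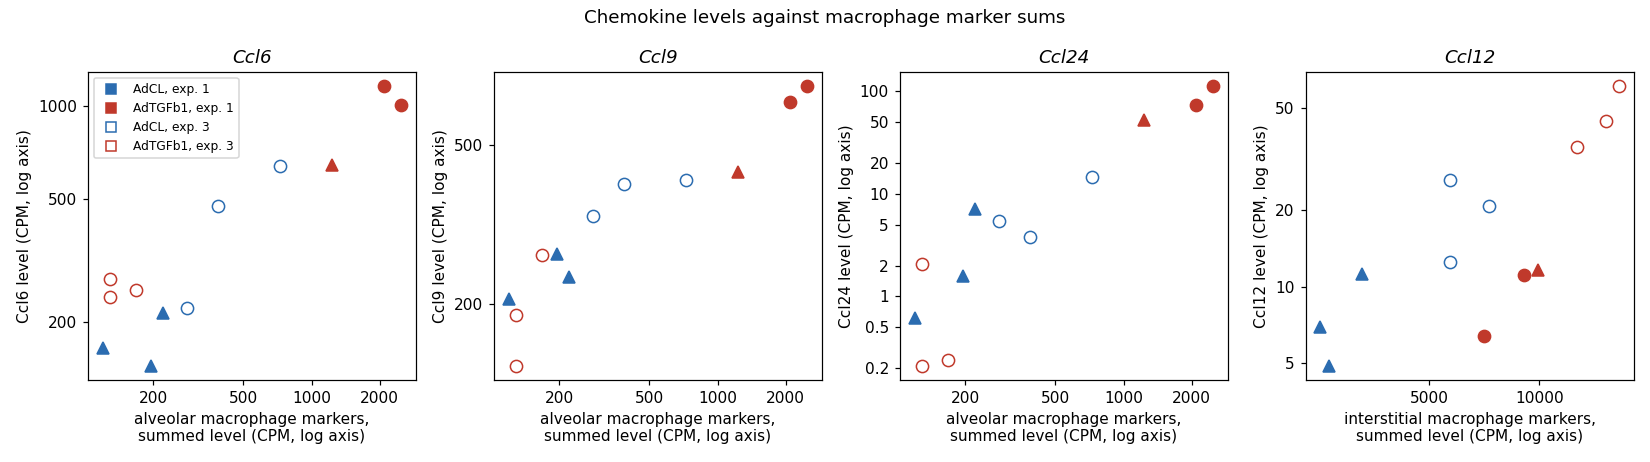
Level of 4 chemokine genes (y axes, CPM, log axes) against the summed level of alveolar or interstitial macrophage markers (x axes, CPM, log axes) in the 12 libraries, filled for experiment 1 and open for experiment 3, with triangles for male libraries. Libraries with 0 counts are drawn at the level of 3 counts. The AdTGFb1 libraries of experiment 1 are at the top right for Ccl6, Ccl9 and Ccl24, and those of experiment 3 at the top right for Ccl12.

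Endothelial markers moved the opposite way to Ccl6 in the same libraries, with a Pearson r of -0.87 for Ccl6 over the 12 libraries. With a term for the markers of endothelial, epithelial and fibroblast cells, the experiment 1 call remained for Ccl9 (log2 fold change 1.93, adjusted p = 0.012) but not for Ccl6 (log2 fold change 1.38, adjusted p = 0.18) or Ccl24 (4.86, adjusted p = 0.16). That term left 80 higher and 185 lower calls among all genes in experiment 1, in place of 1397 and 1867.

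Ccl3 and Ccl4 were lower with AdTGFb1 in experiment 1, where their neighbours Ccl6 and Ccl9 were higher. Ccl3 (MIP-1α) was at 174, 173 and 211 CPM in AdCL and 85.7, 106 and 104 CPM in AdTGFb1 of experiment 1. Those groups did not overlap, and the log2 fold change was -0.91 ± 0.26 (adjusted p = 0.0119). In experiment 3 it was at 124, 365 and 226 CPM in AdCL and 190, 343 and 257 CPM in AdTGFb1, overlapping groups with a log2 fold change of 0.14 ± 0.25 (adjusted p = 0.845).

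Ccl4 (MIP-1β), next to Ccl3 on the chromosome, was at 142, 91.7 and 81.9 CPM in AdCL and 57.3, 50.05 and 46.0 CPM in AdTGFb1 of experiment 1. Its log2 fold change was -1.04 ± 0.32 (adjusted p = 0.0212). In experiment 3 its values were 54.0, 132 and 116 CPM and 57.9, 189 and 122 CPM, with a log2 fold change of 0.28 ± 0.32 (adjusted p = 0.72). The drop in experiment 1 did not pass without AdCL DC 9 for Ccl3 (adjusted p = 0.0605), nor without AdCL DC 7 (adjusted p = 0.144) or AdTGFb1 DC 54 (adjusted p = 0.0698) for Ccl4. The experiments' effects differed by 1.06 ± 0.36 for Ccl3 (adjusted p = 0.0844) and 1.33 ± 0.45 for Ccl4 (adjusted p = 0.0841), which did not pass. The ratio of Ccl3 to Ccl4 counts was 1.89 ± 0.677, 1.96 ± 0.409, 2.34 ± 0.409 and 2.40 ± 0.776 in AdCL and AdTGFb1 of experiment 1 and then of experiment 3, within its spread.

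Ccl5 (RANTES), which attracts T cells and monocytes, did not pass in any of the 5 comparisons. It was at 170, 97.1 and 113 CPM in AdCL and 160, 52.4 and 150 CPM in AdTGFb1 of experiment 1, and at 77.2, 83.7 and 75.4 CPM and 82.8, 83.8 and 39.4 CPM in experiment 3. The spread within AdTGFb1 was wide in both, with DC 52 and DC 956 low. T and NK cell markers, cells that also express Ccl5, summed to 1.38 to 22.4 CPM per library, and no gene of that list was at 0 in all libraries.

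The ligands of Ccr2 were led by Ccl2 (MCP-1), the main attractant of inflammatory monocytes. It was at 141, 95.1 and 114 CPM in AdCL and 77.4, 76.6 and 85.7 CPM in AdTGFb1 of experiment 1. In experiment 3 it was at 72.5, 185 and 139 CPM in AdCL and 69.4, 116 and 79.2 CPM in AdTGFb1. The groups overlapped in experiment 3 through AdCL DC 943, at 72.5 CPM, and not in experiment 1. Over both experiments the means were 124 ± 39.4 and 84.1 ± 16.6 CPM (SD, n = 6), a log2 fold change of -0.56 ± 0.19 with an adjusted p of 0.0442. The effects in the single experiments, -0.55 ± 0.25 and -0.58 ± 0.25, were close in size and did not pass (adjusted p = 0.114 and 0.201), and their difference was -0.04 ± 0.35 (adjusted p = 0.974). This call was near the threshold: it was lost in 13 of 20 other settings, among them leaving out any of 9 libraries (DC 7, 9, 14, 52, 54, 944, 949, 954 or 956), with adjusted p from 0.00371 without DC 943 to 0.169 without DC 944.

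Ccl7 (MCP-3), next to Ccl2, passed in neither experiment. It was at 17.6, 10.5 and 8.00 CPM in AdCL and 12.3, 14.8 and 16.3 CPM in AdTGFb1 of experiment 1, and at 13.8, 59.9 and 42.2 CPM and 14.4, 30.5 and 25.1 CPM in experiment 3. AdCL DC 943 was the lowest AdCL library of experiment 3 for Ccl2, Ccl3, Ccl4 and Ccl7. Within groups, deviations of Ccl2 and Ccl7 moved together with a Pearson r of 0.92 over the 12 libraries, and those of Ccl2 and Ccl3 with one of 0.89.

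Ccl12 (MCP-5), a mouse ligand of Ccr2, went the other way from Ccl2. In experiment 1 it was at 6.93, 4.88 and 11.3 CPM in AdCL and 11.7, 6.37 and 11.1 CPM in AdTGFb1, with a log2 fold change of 0.34 ± 0.37 (adjusted p = 0.553). In experiment 3 it was at 12.5, 26.2 and 20.6 CPM in AdCL and 35.2, 61.3 and 44.8 CPM in AdTGFb1, groups that did not overlap, with a log2 fold change of 1.25 ± 0.36 (adjusted p = 0.0382). The call in experiment 3 was lost without DC 943 (adjusted p = 0.149), DC 949 (0.102), DC 955 (0.188) or DC 956 (0.104). It was also lost with a term for structural cell markers (log2 fold change 1.16, adjusted p = 0.0699). Over both experiments the log2 fold change of 0.81 ± 0.29 had an adjusted p of 0.0602. Without AdCL DC 9 it was 1.04 (adjusted p = 0.0143), and without AdTGFb1 DC 52 it was 0.96 (adjusted p = 0.0257). With a term for sex it was 1.05 (adjusted p = 0.0343), and with one for structural cell markers 1.09 (adjusted p = 0.0192).

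The balance between Ccl2 and Ccl12 lay furthest toward Ccl12 in AdTGFb1 of experiment 3. The ratio of their counts was 16.7 ± 5.65 in AdCL and 8.78 ± 2.85 in AdTGFb1 of experiment 1, and 6.52 ± 0.645 and 1.88 ± 0.102 in experiment 3. In experiment 3 the ratios of the 2 vectors did not overlap, with AdCL from 5.80 to 7.04 and AdTGFb1 from 1.77 to 1.97. In experiment 1 they did, with AdCL DC 9 at 10.1 and AdTGFb1 reaching 12.0.

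Ccl8, a ligand of Ccr8 in the mouse, was low and variable. It was at 0, 3.38 and 4.74 CPM in AdCL and 13.9, 6.80 and 8.25 CPM in AdTGFb1 of experiment 1, and at 14.5, 3.83 and 27.9 CPM and 46.1, 15.01 and 11.8 CPM in experiment 3. The groups of experiment 1 did not overlap, but the log2 fold change of 1.82 ± 0.78 had an adjusted p of 0.0938, and the one of experiment 3, 0.65 ± 0.73, an adjusted p of 0.719.

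Interstitial macrophage markers moved with Ccl12 and Ccl8. Interstitial macrophages are the macrophages of the lung tissue, and the 11 markers listed include the complement genes C1qa, C1qb and C1qc. Their summed level was 2524 to 3280 CPM in AdCL and 7045 to 9903 CPM in AdTGFb1 of experiment 1, and 5681 to 7261 CPM and 12667 to 16444 CPM in experiment 3. The largest part of this sum was Apoe, at means of 1227, 5222, 3234 and 9818 CPM in the same order of groups. Of these 11, 7 were higher with AdTGFb1 over both experiments and 0 lower, and 7 were higher in experiment 3 than in experiment 1. Within experiment 1, 8 were higher and 2 lower. Lyve1 went from 19.2 to 0.708 CPM there and Cd163 from 24.1 to 1.76 CPM, as group means. Neither Ccl12 nor Ccl8 passed in experiment 1. No marker of the list was at 0 in all libraries. Over the 12 libraries Ccl12 had a Pearson r of 0.78 with this sum and Ccl8 one of 0.73, as a description. With the summed neutrophil markers r was 0.72 for Ccl12 and 0.21 for Ccl8. The part of either cell type in the levels of Ccl12 and Ccl8 was not tested.

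The experiments also differed in the fit that held a term for the vector. Experiment 3 was higher than experiment 1 for Ccl12 (log2 difference 1.83 ± 0.29, adjusted p = 0.000987), Ccl7 (1.18 ± 0.33, adjusted p = 0.0394) and Ccl3 (0.89 ± 0.23, adjusted p = 0.0286), 3 of 10 members, and for 0 of 10 was it lower. Of all genes 6.43% were called in this comparison, 3.57% higher and 2.86% lower. For Ccl12 all 6 libraries of experiment 3 lay above all 6 of experiment 1, the only member without overlap, where 2% of all genes had none. The call for Ccl12 held in each of the 19 other settings, while that for Ccl7 was lost in 10 and that for Ccl3 in 7 of them. Single libraries that ended the call were DC 7, 8, 9, 14, 944, 949, 955 and 956 for Ccl7 (adjusted p up to 0.108, without DC 944) and DC 14, 52, 54, 944, 955 and 956 for Ccl3 (up to 0.0872, without DC 944). Sex is partly confounded with the experiment, since all 4 male libraries are in experiment 1. With a term for sex the log2 difference was 0.72 for Ccl7 (adjusted p = 0.515) and 1.15 for Ccl3 (adjusted p = 0.0664), and neither passed. The mean of Ccl3 was 186 CPM in experiment 1 and 238 CPM in experiment 3 for AdCL, groups that overlapped. For AdTGFb1 it was 98.7 and 263 CPM.

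Levels were set side by side between genes only per kilobase of exon, with the exon lengths of the GENCODE M21 annotation. In AdCL of experiment 1 the order of means was Ccl3 at 243 ± 28.5 CPM per kb, Ccl4 at 160 ± 49.0, Ccl5 at 132 ± 39.7, Ccl2 at 102 ± 20.1, Ccl6 at 97.4 ± 20.0 and Ccl9 at 77.5 ± 9.92. Ccl3 stood above the rest by more than the SDs, while each of the following neighbours in this order lay closer together than their 2 SDs added. In AdTGFb1 of experiment 1 Ccl6 came first at 521 ± 147 CPM per kb, followed by Ccl9 at 194 ± 47.1 and Ccl3 at 129 ± 14.7. In AdCL of experiment 3 Ccl3 (311 ± 158) and Ccl6 (249 ± 117) led, within their spread. In AdTGFb1 of experiment 3 Ccl3 (344 ± 100) led, Ccl4 (186 ± 99.5) and Ccl6 (143 ± 9.88) followed within their spread, and Ccl12 (87.8 ± 24.6) ranked 4 of 10. Ccl24 was last in 3 of the 4 groups, at 0.529 to 6.15 CPM per kb, and ranked 7 of 10 in AdTGFb1 of experiment 1 at 61.2 ± 23.6.

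For each chemokine the 3 genes with the most similar log2 level over the 12 libraries were taken among the 9449 tested genes whose mean reached 5 CPM. For Ccl6 these were Ctsk, which encodes the protease cathepsin K (Pearson r = 0.96), Atp6v0d2, a subunit of the vacuolar proton pump (0.955), and Vdac1, a mitochondrial outer membrane channel (0.953). For Ccl9 they were Sh3kbp1 (0.93), Fn1 (0.93) and Hdac2 (0.92), and for Ccl24 Ccdc80 (0.96), Socs2 (0.93) and Rnase2a (0.92). For Ccl12 they were Lilra5 (0.98), Adgre1, which encodes the macrophage antigen F4/80 (0.97), and Fyb (0.96). For Ccl8 they were Ikbke, Cdk5 and Phf11b, at 0.93 to 0.94. Ccl2 had Bcl2a1a (0.92), Kat5 (0.90) and Mllt4 (0.89). Ccl3 had Sftpc (0.92), the surfactant protein C gene of alveolar type II epithelium, at 1.14 to 52.1 CPM, and Tbc1d9b (0.90). Ccl4 had Rasgef1b, Spata13 and Nfkbiz (all 0.88), Ccl5 had Cnot7 (0.90), Gtf2f2 (0.89) and Taf9 (0.86), and Ccl7 had Dusp1 (0.92) and 2510009E07Rik (0.88), with 2 genes named for Ccl3 and for Ccl7. These are the highest of many correlations and carry no test.

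Among the members themselves, the pairs with the highest r over the 12 libraries were Ccl9 with Ccl24 (0.85) and Ccl3 with Ccl4 (0.84). Within groups the first pair had a Pearson r of 0.17 and the second one of 0.74.

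Receptors of these ligands were measured in the same cells. Of the 8 reported, 4 were tested, and over both experiments 1 was higher (Ccr2), 1 was lower (Ccr1) and 2 did not pass. Ccr1, the receptor for Ccl3, Ccl5, Ccl6 and Ccl9, went from 160 to 101 CPM in experiment 1 and from 172 to 108 CPM in experiment 3, as group means, and its log2 fold changes of -0.67 ± 0.16 and -0.67 ± 0.16 differed by -0.0021 ± 0.22. Ccr2 went from 156 to 422 CPM in experiment 1 and from 223 to 324 CPM in experiment 3, with log2 fold changes of 1.43 ± 0.16 and 0.54 ± 0.15, and its effect was lower in experiment 3 (log2 difference -0.90 ± 0.22, adjusted p = 0.0154).

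Ccrl2, a receptor that binds ligand without signalling, was at group means of 358 to 533 CPM and did not pass over both experiments (log2 fold change 0.25 ± 0.12). Ackr2, a scavenger of CC chemokines, was at means of 0.227 to 2.45 CPM and did not pass (-0.63 ± 1.78). Ccr3, the receptor for Ccl24, had 88 counts in all 12 libraries together and at most 5.97 CPM in any. Ccr8 had 31 counts, Ccr1l1 16 and Ackr1 11, too few to be tested. Markers of eosinophils, the cells that Ccl24 attracts, summed to at most 5.97 CPM, with Epx and Prg3 at 0 in all 12 libraries.

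Of 13 other CC ligands, 4 were tested, and over both experiments 0 were higher and 2 lower. These 2 were Ccl22 (log2 fold change -1.76 ± 0.17) and Ccl17 (-1.70 ± 0.36), ligands of Ccr4 made by mature dendritic cells. Ccl22 fell in both experiments, from 1366 to 457 CPM and from 1226 to 321 CPM as group means. Ccl17 went from 717 to 433 CPM in experiment 1 and from 862 to 135 CPM in experiment 3. Of the 4 tested, 1 was called lower in experiment 1 and 2 in experiment 3. For 1 of them the vector effect was lower in experiment 3 by the test of the difference. Of 16 CXC, CX3C and XC ligands, 14 were tested, and 1 was higher and 6 lower over both experiments. The higher one was Cxcl9, a ligand of Cxcr3 that interferon gamma induces, from 38.5 to 193 CPM and from 77.9 to 323 CPM (log2 fold change 2.18 ± 0.34). Cx3cl1 (-2.36 ± 0.23), Cxcl1 (-0.82 ± 0.20) and Cxcl15 (-3.45 ± 0.86, at a mean of 2.95 CPM) were among the lower ones.

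Regulators that are known to act on chemokine genes moved mostly one way. Of 22 inducers and feedback genes, all tested, 4 were higher and 12 lower over both experiments, with a median log2 fold change of -0.63 beside -0.00196 for all genes. The NF-kappaB subunit genes Rel (-1.17 ± 0.12), Nfkb1 (-0.996 ± 0.12) and Relb (-1.23 ± 0.15) and the inhibitor gene Nfkbib (-1.33 ± 0.18) were lower with AdTGFb1. Each of these 4 was called lower in both experiments. They were named for the lowest adjusted p over both experiments, which favours genes with the same sign in both. Their shared sign therefore cannot be set against the signs of Ccl9 and Ccl24. For 4 of the 22 genes of that list the vector effect differed between the experiments by the test of the difference. Of 12 cytokines known to act on CC chemokine genes, in either direction, 8 were tested, and 1 was higher and 4 lower, with a median log2 fold change of -0.96. The 4 were Il6 (-1.73 ± 0.27), Il1a (-1.01 ± 0.21), Il10 (-2.00 ± 0.50) and Il1b (-0.92 ± 0.26). Mature migratory dendritic cell markers summed to 2508 to 3920 CPM in AdCL and 798 to 1337 CPM in AdTGFb1 over both experiments. That list includes Ccl22 and Relb, already named above. Ccl22 alone was at means of 1296 CPM in AdCL and 389 CPM in AdTGFb1, of mean sums of 3089 and 1106 CPM.

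**Figure D5:**
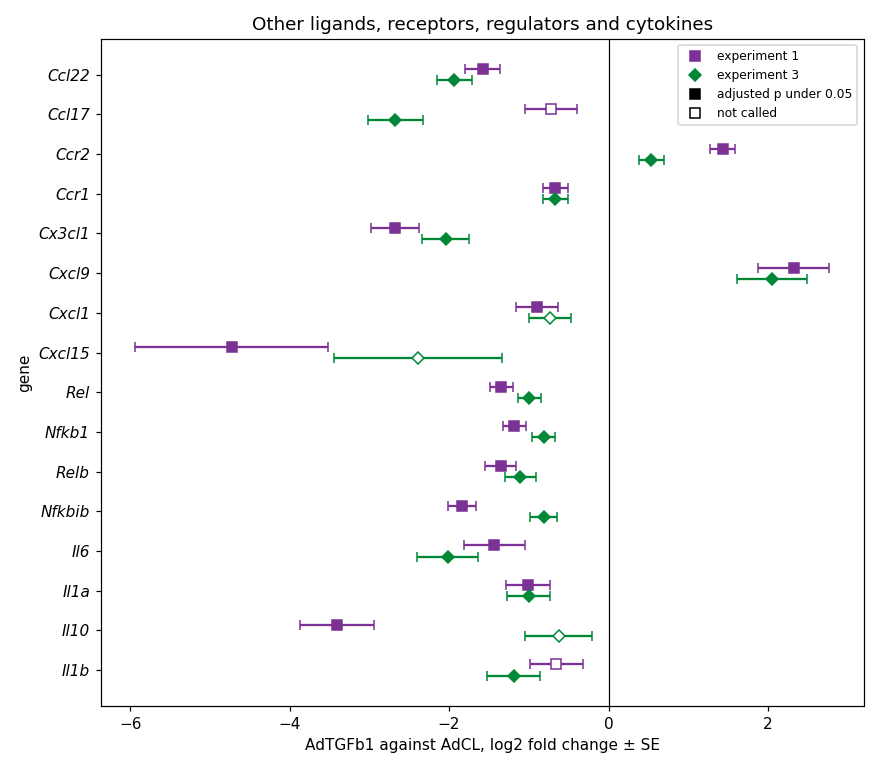
Log2 fold change of AdTGFb1 against AdCL with its standard error (x axis) for the other CC ligands, receptors, CXC and CX3C ligands, regulators and cytokines named in the text (y axis), squares for experiment 1 and diamonds for experiment 3, filled where the adjusted p was under 0.05. Rel, Nfkb1, Relb and Nfkbib lie to the left of 0 in both experiments, and Ccr2 lies to the right in both.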

How the data were processed

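The deposited table holds raw counts per gene for 12 libraries, made by the authors and not normalized. Per the submitters' processing notes, which give no order, the tools include STAR 2.5.0c, HTSeq, DESeq2, Trim Galore 0.4.1 and cutadapt 1.9.1, and the build is mm9. The annotation and the strand setting are not stated in the labels. No member's exons overlapped another gene's in GENCODE M21, whose coordinates belong to another build and are not printed.

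Groups came from the titles. Genes were filtered with filterByExpr over the 4 groups, scaled by TMM and tested with edgeR 4.0.16 (R 4.3.3), glmQLFit and glmQLFTest, with Benjamini-Hochberg adjustment over all 13221 genes tested. The model over both experiments had terms for vector and experiment, and a model of 4 groups gave the effects within an experiment and their difference. SE is the log2 fold change divided by the square root of F. Levels are CPM, and log2 levels used a prior count of 2. The fit was tested on simulated data. Alternatives were RLE scaling (DESeq2's size factors), other filters, DESeq2 1.42.0, limma-voom (limma 3.58.1), terms for sex or structural cell markers, no term for the experiment, and leaving out each library. The members and lists were chosen with earlier results of these data known. Beside the 10 members, the genes named are the listed receptors with counts, up to 4 called genes per list (lowest adjusted p, mean not under 1 CPM), and 3 similar genes per member, except a few genes that are not reported here and that were also left out of the list counts. Marker genes are named beside the members they moved with, after their values were seen. Intervals of counts and the 3-count limit cover counting error only.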

Additional observations from a re-analysis of the deposited data

Results flagged for a closer look

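For 3 chemokines the vector effect differed between the experiments by the test of the difference itself, experiment 3 minus experiment 1, with edgeR's quasi-likelihood test. The log2 difference was -3.21 ± 0.37 for Ccl6 (adjusted p = 3.79e-05), -2.27 ± 0.28 for Ccl9 (adjusted p = 6.25e-05) and -8.07 ± 1.18 for Ccl24 (adjusted p = 0.000296). With the term for structural cell markers the difference was -3.03 for Ccl9 (adjusted p = 0.00916), which stayed called, -1.90 for Ccl6 (adjusted p = 0.271) and -8.32 for Ccl24 (adjusted p = 0.122), which did not. All 3 of 3 AdTGFb1 libraries lay above every AdCL library in experiment 1 for each gene. In experiment 3 all 3 of 3 lay below every AdCL library for Ccl9 and Ccl24, and 0 of 3 for Ccl6. Sex, endothelial markers and alveolar macrophage markers differed between the groups in the same libraries, and their part in the difference was not tested beyond the fits with a term for sex or for structural cell markers.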

How the results depend on the processing

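Pairs of counts in brackets are calls among all genes, higher and then lower, of 13221 tested unless given. The number of the 10 chemokines called over both experiments was 1 (897 and 1374). It moved to 4 with no low-count filter (995 and 1502 of 17291) and 0 with a mean of at least 1 CPM (978 and 1286 of 12162). With DESeq2 it was 2 (1146 and 1698), with limma-voom 3 (960 and 1547) and with no term for the experiment 0 (599 and 1137). With a term for sex (582 and 919) or for structural cell markers (522 and 958) it stayed 1, but the gene changed. The call was then Ccl12 higher (adjusted p = 0.0343 and 0.0192), and Ccl2 did not pass (adjusted p = 0.0897 and 0.135). Leaving out 1 library gave 0 to 2 (630 to 1007 and 1063 to 1481, with 13754 to 13873 genes tested). In experiment 1 it was 5 (1397 and 1867), then 7 with no low-count filter (1465 and 1975 of 17291). It was 4 with DESeq2 (1604 and 2256), where Ccl4 did not pass (adjusted p = 0.0715). With a term for sex it was 3 (540 and 756) and with the structural cell marker term 1 (80 and 185). Without 1 library it was 4 to 6 (957 to 1529 and 1375 to 1914). In experiment 3 it was 3, then 5 with no low-count filter and 2 to 4 without 1 library. For the difference between the experiments' effects it was 3 (453 and 343), then 5 with no low-count filter (715 and 507 of 17291). It was 1 with the structural term (8 and 21) and 3 to 5 without 1 library (274 to 541 and 212 to 415). For experiment 3 against experiment 1 it was 3 (472 and 378), then 5 with no low-count filter (595 and 473 of 17291). It was 6 with the structural term (717 and 604) and 4 with DESeq2 (705 and 641). It was 2 with limma-voom (553 and 523) and 2 with a term for sex (358 and 189). Without 1 library it was 1 to 3 (343 to 471 and 227 to 358). Of log2 fold changes over both experiments that were not called, Ccl9 turned to -0.27 with a term for sex. With the structural term Ccl3 turned to 0.0586, Ccl4 to 0.0095, Ccl6 to -0.0096, Ccl9 to -0.27 and Ccl24 to -1.12, and in experiment 1 the called drop of Ccl3 turned to 0.41 (adjusted p = 0.721). The cause was not tested. Without 1 library the values ran from -0.25 to 0.023 for Ccl5, -0.38 to 0.0495 for Ccl7, -0.0080 to 0.46 for Ccl9 and -0.56 to 2.33 for Ccl24. For Ccl24 over both experiments limma-voom gave 4.09 (adjusted p = 0.00305), a call, beside 0.91 in edgeR. Calls for single members in the other comparisons were tried in the same settings, chosen after the data were seen. The call for Ccl24 in experiment 3 was lost with DESeq2 (adjusted p = 0.126) and limma-voom (-5.33, adjusted p = 0.0778), and its values without 1 library ran from -9.62 to -2.64. Among all genes the median log2 fold change stayed within 0.1 of 0 in every setting. No paired analysis was possible because the DC numbers are not shared between groups. Depth limits Ccl24 and Ccl8, which had libraries with 0 counts.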
